A study of Homo sapiens with 24 samples.

Results

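The ZBTB genes encode transcription factors that join a BTB domain at the amino end to zinc fingers that bind DNA, and 35 of them were followed here through 3 h of BET degradation or BET inhibition in breast cancer cells. Members were the rows whose symbol was ZBTB followed by a number and at most 1 capital letter, which gave 35 of the 14114 genes of the table. All 35 are annotated as protein-coding. Of the 38 rows whose symbol starts with ZBTB, ZBTB8OS, ZBTB8OSP2 and ZBTB11-AS1 were left out by this rule, and ZBTB16 and ZBTB20 were not analysed here.

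The study treated 3 cell lines labelled as basal, negative for the oestrogen and progesterone receptors and without HER2 overexpression: MDA-MB-157 cells, MDA-MB-231 cells and MDA-MB-468 cells. Each line received BETd-246 (100 nM), a BET degrader, BETi-211 (1000 nM), a BET inhibitor, thalidomide (1000 nM), which binds cereblon, or the solvent DMSO (0.05% by volume). Every exposure lasted 3 h, and each of the 12 groups of line and treatment held 2 libraries, 24 in all. Thalidomide and DMSO served as controls and gave 4 control libraries per line, which the comparisons of BETd-246 and of BETi-211 in a line share. The labels do not say whether the 2 libraries of a group came from separate cultures, so the p-values measure the spread between libraries, which may be technical. Where 3 values stand in a row below, the first belongs to MDA-MB-157, the next to MDA-MB-231 and the last to MDA-MB-468.

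As background, the BTB domain pairs ZBTB proteins with each other and brings in corepressors such as BCOR and, in some members, the ubiquitin ligase scaffold CUL3, so that many ZBTB proteins act as repressors. The zinc fingers choose the DNA: ZBTB33 (Kaiso), ZBTB4 and ZBTB38 can bind methylated CpG, ZBTB17 (MIZ1) is a partner of MYC, and ZBTB48 and ZBTB10 bind telomeric repeats. BET proteins bind acetylated histones and help RNA polymerase II into elongation, and both compounds take them off chromatin, the degrader by having the proteins destroyed.

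Levels were taken as FPKM, fragment counts scaled to transcript length and sequencing depth. The FPKM sum of a library was 454289 to 534179. Its depth, roughly estimated from the steps that single fragments make at low values, was 42400000 to 63500000 fragments. Only candidate depths within a preset range were used, so the estimate could not fall outside that range. If the lowest of these depths holds, 1 FPKM would stand for 225 fragments at the median exonic length of the members, 5313 bases. In every library, treated ones included, KRT8 and KRT18, epithelial keratins, were at 148 FPKM or more. Other epithelial genes differed between lines. EPCAM was at 145 FPKM or more in MDA-MB-468 and at 3.9 FPKM or less in the other lines. CDH1 was at 36.4 FPKM or more in MDA-MB-468 and at 0.533 FPKM or less elsewhere. EGFR was at 582 FPKM or more in MDA-MB-468 and at 58.4 FPKM or less elsewhere. The keratins KRT5, KRT14 and KRT17, by which basal cells are known, were at 22.8 FPKM or more in MDA-MB-468 and under 1 FPKM in the other lines, where VIM, ZEB1 and FN1, mesenchymal genes, were higher than in MDA-MB-468. CD14, COL3A1 and LUM, which mark monocytes and fibroblasts, reached 50.9 FPKM or more in every MDA-MB-157 control and stayed under 1 FPKM in every control of the other lines. ERBB2, the HER2 gene, was at 7.17 to 19.5 FPKM over all libraries, treated ones included, and ESR1, PGR, PTPRC, CD3E, PECAM1 and VWF were not analysed here.

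In control libraries the 35 genes spanned a wide range of levels. The median member stood at 7.43, 6.08 and 5.71 FPKM in the 3 lines. ZBTB38 was highest in MDA-MB-157 at 29.8 ± 0.25 FPKM and in MDA-MB-231 at 42.3 ± 0.55 FPKM, and ZBTB44 was highest in MDA-MB-468 at 24.8 ± 0.9 FPKM (SD, n = 4 control libraries each). In MDA-MB-157, ZBTB1 at 29.4 ± 2.1 FPKM came next to ZBTB38 within its spread, and ZBTB18 followed at 21.1 ± 0.87 FPKM. In MDA-MB-468, ZBTB7B, ZBTB38 and ZBTB1 came next to ZBTB44, at 19.8 ± 1.4, 18.6 ± 0.37 and 18.5 ± 0.57 FPKM, and their libraries overlapped. The lowest members were ZBTB47 in MDA-MB-157 (0.365 ± 0.048 FPKM), ZBTB46 in MDA-MB-231 (1.05 ± 0.13 FPKM) and ZBTB47 in MDA-MB-468 (1.2 ± 0.081 FPKM).

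The lines differed in the level of most members, as they did in most genes. Between MDA-MB-157 and MDA-MB-231, 31 of 35 members differed (87.4% of all genes). Between MDA-MB-468 and MDA-MB-231 the count was 31 (86.2% of all genes), and between MDA-MB-157 and MDA-MB-468 it was 33 (88% of all genes). ZBTB46, which marks classical dendritic cells in mice, had 12.4 FPKM in the controls of MDA-MB-157, against 1.05 in those of MDA-MB-231 and 2.49 in those of MDA-MB-468. ZBTB47 ran the other way, with 0.365, 5.1 and 1.2 FPKM. ZBTB7B (ThPOK), which directs CD4 T cell identity in the thymus, had 19.8 FPKM in MDA-MB-468, against 3.89 in MDA-MB-157 and 5.36 in MDA-MB-231.

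**Figure D1:**
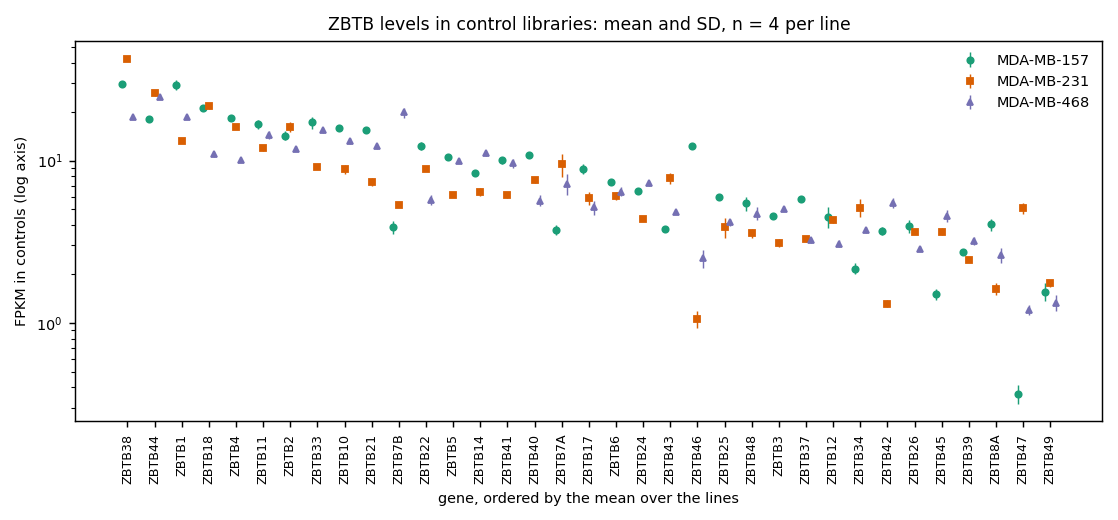
FPKM of the 35 ZBTB genes in control libraries (log axis), 1 symbol per line with the mean and SD of 4 libraries, genes ordered from the highest mean over the lines. ZBTB38 leads in MDA-MB-157 and MDA-MB-231, and ZBTB7B and ZBTB46 show wide gaps between lines.

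After 3 h with BETd-246, ZBTB genes were lower almost without exception. Of 35 members, 31 fell in MDA-MB-157 (32.4% of all genes), 35 in MDA-MB-231 cells (33.3%) and 32 in MDA-MB-468 cells (33.7%), and 0 rose in each line (19%, 14.8% and 20.1% of all genes). All 35 changes were below 0 in each line, so 0 were higher at an unadjusted p below 0.05 as well. The test was limma on log2(FPKM + 1), with a call at a Benjamini-Hochberg adjusted p below 0.05 over all 14114 genes. Counted over the 12046 protein-coding genes alone, 34.2%, 34% and 35.2% were lower. The median change of the members was -0.68, -0.68 and -0.89 on the log2 scale, beside -0.03, -0.05 and -0.03 over all genes. A fall of at least 2-fold on that scale was reached by 8, 13 and 15 members, beside 4.2%, 4.56% and 6.11% of all genes. These counts of members were 5, 8 and 8 after quantile normalization, with member medians of -0.52, -0.43 and -0.6, and 5, 11 and 11 after median-of-ratios scaling. With a pseudocount of 0.1 they were 14, 16 and 17.

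**Figure D2:**
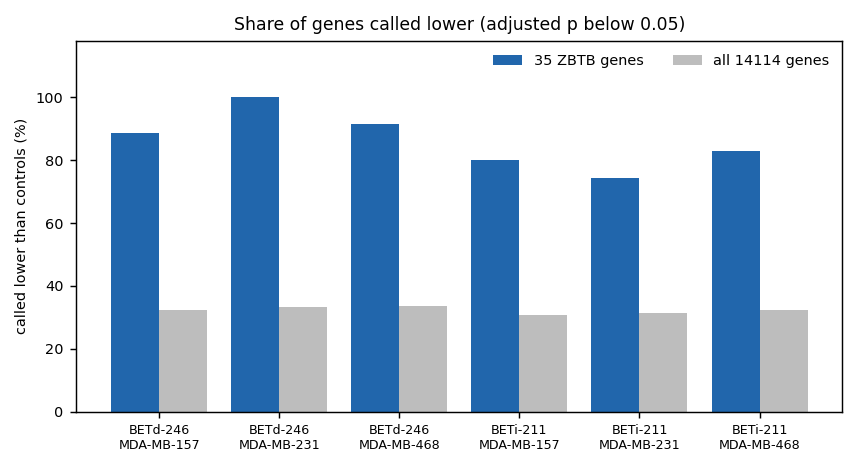
Share of genes called lower than the controls of the line (%), 35 ZBTB genes beside all 14114 genes, for BETd-246 and BETi-211 in each line. The ZBTB bars stand above those of all genes in all 6 comparisons, with 31, 35 and 32 of 35 members lower with BETd-246.

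Of the 35 genes, 30 fell with BETd-246 in all 3 lines, and the share of all genes that did so was not computed. ZBTB7B, ZBTB46 and ZBTB47 fell in 2 lines, and ZBTB25 and ZBTB44 in MDA-MB-231 alone. In single libraries, both BETd-246 libraries lay below all 4 control libraries in 34, 35 and 33 members. This was not counted over all genes, so how unusual these numbers are cannot be told. The summed level of the 35 genes was 206 and 212.6 FPKM in the BETd-246 libraries of MDA-MB-157, against 335.6 to 347.2 FPKM in its controls. In MDA-MB-231 it was 172.8 and 173.5 FPKM, against 287.5 to 294.4 FPKM in the controls, and in MDA-MB-468 it was 148.1 and 151.3 FPKM, against 285.4 to 293.2 FPKM. The means were thus 61.3%, 59.5% and 51.6% of the controls.

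Some measures of the libraries moved with the compounds. The share of FPKM from mitochondrial genes was 9.55% to 9.74% with BETd-246 and 8.44% to 8.93% with BETi-211 in MDA-MB-468, against 7.18% to 8.33% in its controls, and in the other lines it overlapped the controls for BETd-246 in MDA-MB-157 and for BETi-211 in MDA-MB-231. The median FPKM over genes was 7.89 to 7.94 with BETd-246 in MDA-MB-468, against 9.69 to 10.06 in its controls, and was lower than in controls in the other lines too. FPKM are relative to the other RNA of a library, and in bulk RNA fewer cells and less RNA per cell cannot be told apart. The scaling therefore bears on the directions: of all genes called with BETd-246, 37%, 30.7% and 37.4% were higher on FPKM as deposited, 64.7%, 65% and 64.1% after median-of-ratios scaling, 62%, 62.1% and 62.4% after quantile normalization and 15.8%, 9.88% and 17.9% after scaling to column totals. The median of all genes with BETd-246 was 0.09, 0.08 and 0.09 after median-of-ratios scaling, a shift of over 0.1 from FPKM as deposited. Relative to the median of all genes, the median member stood at -0.65, -0.63 and -0.86 on FPKM as deposited and at -0.64, -0.58 and -0.81 after median-of-ratios scaling. The part of the mitochondrial share in these falls was not tested.

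**Figure D3:**
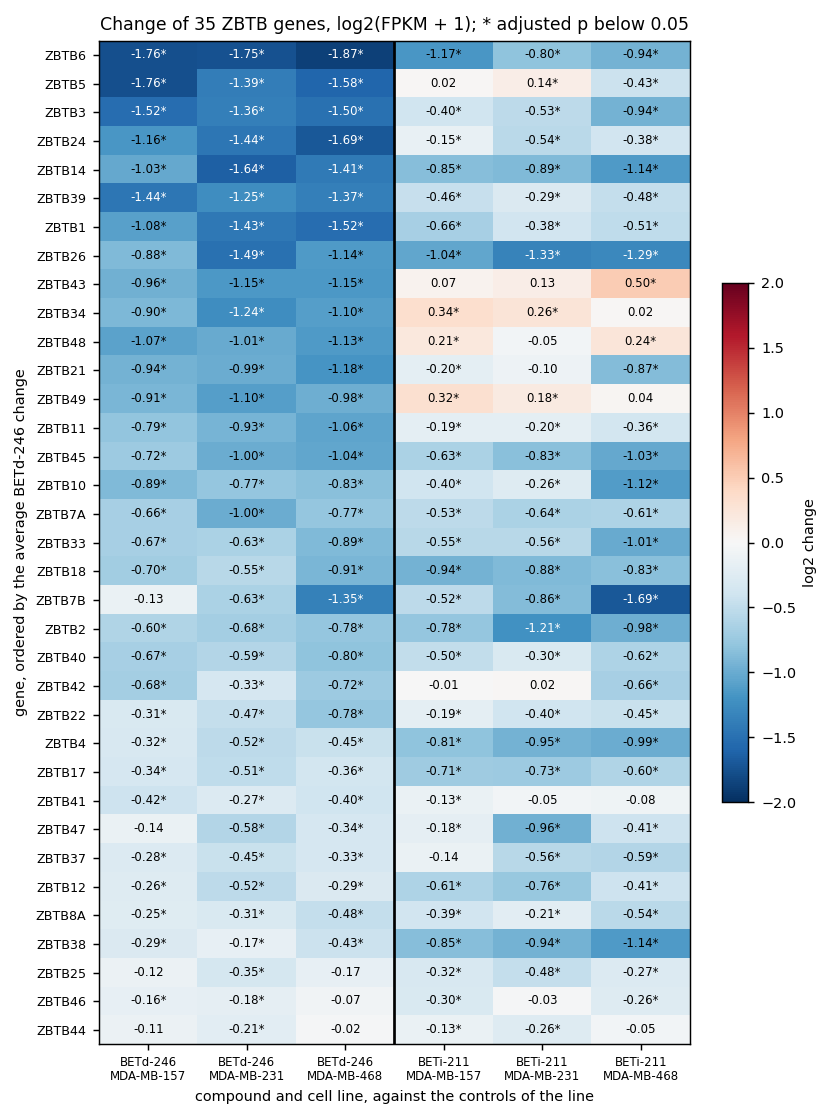
Change against the controls of the line in log2(FPKM + 1) for 35 ZBTB genes (rows, ordered by the average BETd-246 change), BETd-246 in the left 3 columns and BETi-211 in the right 3, with an asterisk at an adjusted p below 0.05. With BETd-246 all 105 values are below 0, while with BETi-211 ZBTB5, ZBTB34, ZBTB42, ZBTB43, ZBTB48 and ZBTB49 include values above 0.

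On the log2(FPKM + 1) scale, which understates changes of low genes, ZBTB6 had the largest average fall. In MDA-MB-468 it had 1.01 and 1.05 FPKM with BETd-246, against 5.96 and 6.2 FPKM with thalidomide and 6.85 and 6.66 FPKM with DMSO. MDA-MB-157 and MDA-MB-231 also had no overlap, with BETd-246 libraries at 1.41 and 1.56 FPKM in MDA-MB-157 and at 1.1 and 1.1 FPKM in MDA-MB-231, against controls of at least 7.11 and 5.74 FPKM. The changes were -1.76, -1.75 and -1.87 (SE 0.05 each), with adjusted p-values of 5.05e-14, 4.22e-14 and 1.18e-14. ZBTB6 lies on chromosome 9 (GRCh38 122908056 to 122913330, minus strand), 2235 bases from ZBTB26 on the same strand. ZBTB26 fell as well, by 0.88, 1.49 and 1.14 on the log2 scale with BETd-246. ZBTB26 libraries of MDA-MB-231 had 0.738 and 0.549 FPKM with BETd-246, against 3.65 and 3.7 FPKM with thalidomide and 3.51 and 3.56 FPKM with DMSO, again with no overlap.

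ZBTB5, ZBTB3 and ZBTB39 followed as large falls in all 3 lines. ZBTB5, described as a repressor of the cell cycle inhibitor gene CDKN1A, had 2.44 and 2.34 FPKM with BETd-246 in MDA-MB-157, against 10.2 and 10.4 FPKM with thalidomide and 10.6 and 10.8 FPKM with DMSO. Its treated libraries were below every control in each line, and it fell by 1.76, 1.39 and 1.58 on the log2 scale (SE 0.05 each). ZBTB3 had 0.517 and 0.664 FPKM with BETd-246 in MDA-MB-231, against 3.03 and 3.3 FPKM with thalidomide and 3.14 and 2.9 FPKM with DMSO, and fell by 1.52, 1.36 and 1.5. ZBTB39, a gene of low level, had 0.347 and 0.395 FPKM in MDA-MB-157, against 2.63 and 2.81 FPKM with thalidomide and 2.82 and 2.65 FPKM with DMSO. It fell by 1.44, 1.25 and 1.37 on a scale that understates changes at such levels. The BETd-246 libraries of ZBTB3 and ZBTB39 did not overlap the controls in any line. ZBTB49, lower still in the controls at means of 1.55, 1.75 and 1.33 FPKM, had means of 0.359, 0.284 and 0.183 FPKM with BETd-246.

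ZBTB24, whose loss causes the ICF immunodeficiency syndrome and which activates CDCA7, had 1.62 and 1.48 FPKM with BETd-246 in MDA-MB-468, against 7.11 and 7 FPKM with thalidomide and 7.48 and 7.33 FPKM with DMSO. It fell by 1.16, 1.44 and 1.69, and its exons share 305 bases with MICAL1 on the same strand. The other ICF genes moved less: DNMT3B fell by 0.27, 0.5 and 0.29, CDCA7 by 0.2, 0.2 and 0.37, and HELLS by 0.2 in MDA-MB-231 cells and 0.18 in MDA-MB-468 cells, while its value of -0.1 in MDA-MB-157 did not pass the test (adjusted p = 0.185). ZBTB14 (ZF5), first described as a repressor of the MYC promoter, had 1.4 and 1.34 FPKM with BETd-246 in MDA-MB-231, against 5.83 and 6.56 FPKM with thalidomide and 6.49 and 6.73 FPKM with DMSO, and fell by 1.03, 1.64 and 1.41. ZBTB1, needed for lymphoid development in mice, had 4.33 and 4.26 FPKM in MDA-MB-231, against 12.8 and 13.6 FPKM with thalidomide and 13.4 and 13.4 FPKM with DMSO. It fell by 1.08, 1.43 and 1.52, and the treated libraries of ZBTB24, ZBTB14 and ZBTB1 lay below all controls in each line.

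ZBTB1 on the plus strand and ZBTB25 on the minus strand of chromosome 14 overlap head to head (a gap of -1502 bases). ZBTB25 had 3.44 and 3.73 FPKM with BETd-246 in MDA-MB-468, against 4 and 4.02 FPKM with thalidomide and 4.17 and 4.47 FPKM with DMSO. These groups did not overlap, but its changes of -0.12 in MDA-MB-157 and -0.17 in MDA-MB-468 did not pass the test (adjusted p = 0.203 and 0.067). The library kit in the labels keeps no strand, so reads of exons that overlap genes of the other strand cannot be assigned with certainty. That concerns ZBTB1, ZBTB25, ZBTB7B, ZBTB8A, ZBTB10, ZBTB11, ZBTB12, ZBTB21 and ZBTB46, by 3 bases in ZBTB7B and by 891 bases of the antisense gene ZBTB11-AS1 in ZBTB11.

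The members that bind methylated DNA changed by different amounts. ZBTB33 (Kaiso) had 8.06 and 7.62 FPKM with BETd-246 in MDA-MB-468, against 15.1 and 14.8 FPKM with thalidomide and 15.7 and 16 FPKM with DMSO, and it fell by 0.67, 0.63 and 0.89. ZBTB4 fell by 0.32, 0.52 and 0.45. ZBTB38 fell by 0.29, 0.17 and 0.43, and its value in MDA-MB-231 was 0.02 after median-of-ratios scaling. In all 3 genes the BETd-246 libraries lay below every control library of the line. Among 6 other methyl-CpG binding proteins and the Kaiso partner CTNND1 (p120 catenin), 7 genes in all, 2, 4 and 4 fell (32.4%, 33.3% and 33.7% of all genes) and 0 rose, with medians of -0.03, -0.1 and -0.12. The largest of these falls was that of MBD4, a DNA glycosylase, at -0.67, -0.67 and -1.01, and CTNND1 had values of 0.03, 0.05 and -0.02 that did not pass the test.

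ZBTB17 (MIZ1) fell with both compounds in all 3 lines. It had 6.48 and 7.24 FPKM with BETd-246 in MDA-MB-157, against 9.31 and 9.08 FPKM with thalidomide and 9.34 and 7.97 FPKM with DMSO. Its libraries did not overlap, and it fell by 0.34, 0.51 and 0.36 on the log2 scale with BETd-246 and by 0.71, 0.73 and 0.6 with BETi-211, but after quantile normalization the BETd-246 falls in MDA-MB-157 cells and MDA-MB-468 cells did not pass the test (adjusted p = 0.151 and 0.734). Of 11 genes measured as partners or targets of MIZ1, 4, 4 and 6 fell with BETd-246 (32.4%, 33.3% and 33.7% of all genes) and 0, 3 and 1 rose (19%, 14.8% and 20.1%), with medians of -0.1, -0.11 and -0.24. Its partner MYC had changes of -1.91, -2.51 and -3.28 with BETd-246, and with BETi-211 its changes were 0.28, -0.58 and -1.58. CDKN1A, which MIZ1 activates, rose by 0.49 in MDA-MB-231 with BETd-246 and by 1.29, 2.55 and 2.27 with BETi-211.

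The telomere binding members fell too. ZBTB48 (TZAP) had 1.59 and 1.6 FPKM with BETd-246 in MDA-MB-468, against 4.6 and 5.34 FPKM with thalidomide and 4.47 and 4.42 FPKM with DMSO, and fell by 1.07, 1.01 and 1.13. ZBTB10 had 8.27 and 7.93 FPKM in MDA-MB-157, against 15 and 16.1 FPKM with thalidomide and 16 and 16.6 FPKM with DMSO, and fell by 0.89, 0.77 and 0.83. Groups overlapped in no line for either gene.

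Further members with known roles were lower by less than 2-fold in most lines. ZBTB7A (LRF), a repressor of the fetal globin genes, had 3.87 and 4.53 FPKM with BETd-246 in MDA-MB-231, against 11.7 and 8.59 FPKM with thalidomide and 8.76 and 8.84 FPKM with DMSO. It fell by 0.66, 1 and 0.77, with no overlap in any line. ZBTB11, whose loss causes intellectual disability, fell by 0.79, 0.93 and 1.06. ZBTB18 (RP58), a repressor in brain development, fell by 0.7, 0.55 and 0.91, and ZBTB2, a repressor of CDKN1A, fell by 0.6, 0.68 and 0.78. ZBTB44 had values of -0.11, -0.21 and -0.02, of which that in MDA-MB-231 passed the test. In MDA-MB-468 it had 24.8 and 24.1 FPKM with BETd-246, against 25.5 and 23.6 FPKM with thalidomide and 25.5 and 24.5 FPKM with DMSO, and these libraries overlapped.

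**Figure D4:**
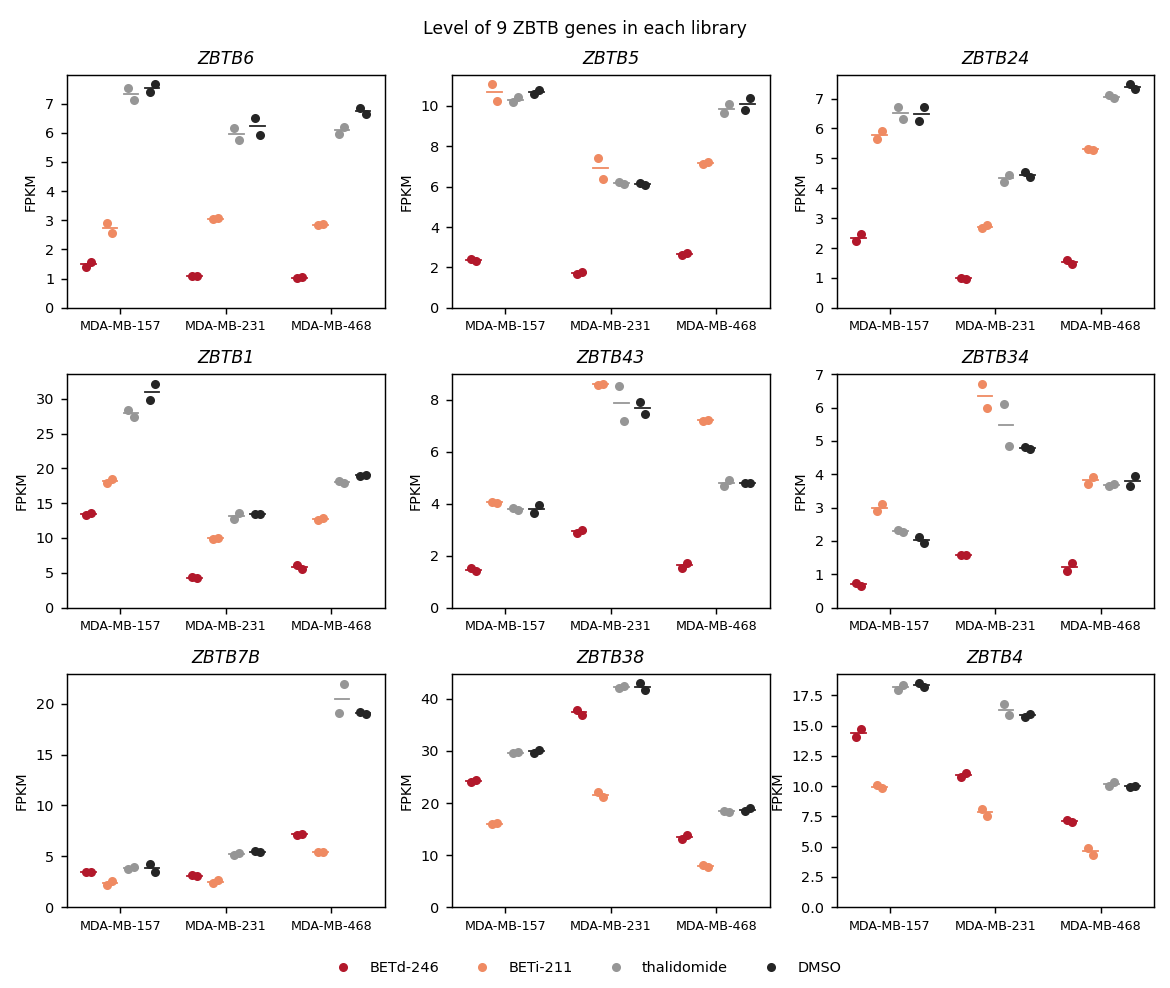
FPKM of 9 ZBTB genes in each library (dots) with the mean of each group (lines), by cell line and, from left to right within a line, BETd-246, BETi-211, thalidomide and DMSO. ZBTB43 is lowest with BETd-246 in each line, whereas ZBTB38 and ZBTB4 are lowest with BETi-211.

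With BETi-211 most members were also lower, but a small set was higher. Of 35 members, 28 fell in MDA-MB-157 (30.9% of all genes), 26 in MDA-MB-231 cells (31.4%) and 29 in MDA-MB-468 cells (32.5%). The members that rose numbered 3 (14.9% of all genes), 3 (18.7%) and 2 (21.3%). The median change was -0.4, -0.48 and -0.59, beside -0.03, -0.03 and -0.01 over all genes. On the log2(FPKM + 1) scale 2, 2 and 7 members fell at least 2-fold, beside 0.914%, 1.47% and 2.2% of all genes. With a pseudocount of 0.1 the members were 4, 7 and 11. Column-total scaling gave 2, 5 and 10, and median-of-ratios scaling gave 1, 2 and 5. Falls in all 3 lines were found for 24 members, and the share of all genes with such falls was not computed. Among them, ZBTB24 did not pass the limma test in MDA-MB-157 after quantile normalization (adjusted p = 0.451). Nor did ZBTB11 in MDA-MB-157 and MDA-MB-231 (adjusted p = 0.178 and 0.233). Of all genes called with BETi-211, 32.6%, 37.4% and 39.6% were higher on FPKM as deposited, 50.5%, 53.6% and 54.4% after median-of-ratios scaling, 48.8%, 50.5% and 51.1% after quantile normalization and 23.1%, 25.1% and 26.3% after column-total scaling. The summed level of the 35 genes was 240 and 243.5 FPKM in MDA-MB-157, 198.5 and 187.8 FPKM in MDA-MB-231 and 178.1 and 177.8 FPKM in MDA-MB-468, which is 70.9%, 66.4% and 61.3% of the control means.

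On the log2(FPKM + 1) scale the largest single falls with BETi-211 were those of ZBTB7B in MDA-MB-468 and of ZBTB26 in MDA-MB-231. In MDA-MB-157 the largest on that scale was that of ZBTB6, at -1.17. The scale understates changes of low genes such as ZBTB26, so this order need not hold for ratios of FPKM. ZBTB7B had 5.43 and 5.4 FPKM with BETi-211 in MDA-MB-468, against 19.1 and 21.9 FPKM with thalidomide and 19.2 and 19 FPKM with DMSO. It fell by 0.52, 0.86 and 1.69 (SE 0.06 each), and the treated libraries were below all controls in each line. ZBTB26 had 0.59 and 0.558 FPKM in MDA-MB-468, against 2.93 and 2.83 FPKM with thalidomide and 2.74 and 2.95 FPKM with DMSO. It fell by 1.04, 1.33 and 1.29, at least 2-fold in all 3 lines on the log2(FPKM + 1) scale. Its neighbour ZBTB6 fell by 1.17, 0.8 and 0.94, and ZBTB2 fell by 0.78, 1.21 and 0.98.

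The rises with BETi-211 were small and lay in ZBTB43, ZBTB34, ZBTB48, ZBTB49 and ZBTB5. ZBTB43 had 7.19 and 7.22 FPKM with BETi-211 in MDA-MB-468, against 4.68 and 4.91 FPKM with thalidomide and 4.81 and 4.81 FPKM with DMSO. Both treated libraries lay above all controls in each line. The change in MDA-MB-468 was 0.5 (SE 0.05, adjusted p = 7.24e-07), beside 0.07 in MDA-MB-157 cells and 0.13 in MDA-MB-231 cells (adjusted p = 0.303 and 0.0514). In MDA-MB-231 it passed the test without the first thalidomide library (adjusted p = 0.00209), without the first DMSO library (adjusted p = 0.0457) and after median-of-ratios scaling (adjusted p = 0.00579). ZBTB34 had 2.9 and 3.1 FPKM with BETi-211 in MDA-MB-157, against 2.33 and 2.26 FPKM with thalidomide and 2.12 and 1.93 FPKM with DMSO, and rose by 0.34. In MDA-MB-231 it rose by 0.26 with overlapping libraries, and without the first BETi-211 library of that line the adjusted p was 0.0837. ZBTB49, described as an activator of CDKN1A, rose by 0.32 in MDA-MB-157 and 0.18 in MDA-MB-231, and ZBTB48 rose by 0.21 in MDA-MB-157 and 0.24 in MDA-MB-468. ZBTB5 rose by 0.14 in MDA-MB-231, which was lost without the first BETi-211 library (adjusted p = 0.437). Without that library 0 members of MDA-MB-231 rose, and the rise of ZBTB48 was lost in MDA-MB-157 without the second DMSO library (adjusted p = 0.0764), without either BETi-211 library there (adjusted p = 0.0593 and 0.146), and in MDA-MB-468 without the second BETi-211 library (adjusted p = 0.0653).

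Set against each other, the compounds differed in which ZBTB genes were lowest, at doses that differ by design (BETd-246 at 100 nM and BETi-211 at 1000 nM). Levels were lower with BETd-246 than with BETi-211 in 18 members in MDA-MB-157 (22.3% of all genes), 18 in MDA-MB-231 cells (23.9%) and 16 in MDA-MB-468 cells (23.2%). They were higher in 7 (24.2%), 7 (17.8%) and 9 (20.1%). In MDA-MB-468 the 9 became 15 after quantile normalization and 5 without the first BETd-246 or the second BETi-211 library. ZBTB1, ZBTB3, ZBTB5, ZBTB6, ZBTB11, ZBTB14, ZBTB21, ZBTB24, ZBTB34, ZBTB39, ZBTB40, ZBTB41, ZBTB43, ZBTB48 and ZBTB49 were lower with BETd-246 in all 3 lines. ZBTB2, ZBTB4, ZBTB7B and ZBTB38 were higher with BETd-246 in all 3 lines. The shares of all genes with the same order in all 3 lines were not computed. The split of all called genes into higher and lower was 52.1%, 42.6% and 46.5% higher on FPKM as deposited, 67.5%, 65.6% and 66% after median-of-ratios scaling and 64.7%, 61.6% and 64.7% after quantile normalization.

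ZBTB5, ZBTB34, ZBTB43 and ZBTB49 were at least 2-fold lower on the log2(FPKM + 1) scale with BETd-246 than with BETi-211 in every line. ZBTB49 stood close to that limit in MDA-MB-468, at -1.01. After quantile normalization only 3 members in all reached it in MDA-MB-468, so not all of these genes did. ZBTB5 had 2.44 and 2.34 FPKM with BETd-246 in MDA-MB-157, against 11.1 and 10.3 FPKM with BETi-211, and the differences were -1.78, -1.53 and -1.16 (SE 0.05 each). ZBTB43 had 1.52 and 1.72 FPKM with BETd-246 in MDA-MB-468, against 7.19 and 7.22 FPKM with BETi-211, with differences of -1.03, -1.29 and -1.65 (SE 0.06 each). ZBTB34 had 1.58 and 1.59 FPKM with BETd-246 in MDA-MB-231, against 6.7 and 6 FPKM with BETi-211, with differences of -1.23, -1.5 and -1.12 (SE 0.08 each). In none of these genes did the libraries of the compounds overlap. ZBTB43 and ZBTB34 are neighbours, 22454 bases apart in the same orientation on chromosome 9.

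ZBTB38 showed the largest difference the other way. It had 37.9 and 36.9 FPKM with BETd-246 in MDA-MB-231, against 22.1 and 21.2 FPKM with BETi-211, and the controls lay at 41.7 to 43 FPKM. The differences were 0.56, 0.76 and 0.71 (SE 0.04 each), with adjusted p-values of 2.46e-09, 5.22e-11 and 1.04e-10. ZBTB4 had 7.18 and 7.04 FPKM with BETd-246 in MDA-MB-468, against 4.86 and 4.36 FPKM with BETi-211, with differences of 0.49, 0.44 and 0.53. ZBTB2 had 9.44 and 9.92 FPKM with BETd-246 in MDA-MB-231, against 6.41 and 6.42 FPKM with BETi-211, with differences of 0.18, 0.53 and 0.2. For ZBTB38 and ZBTB4 the BETd-246 libraries lay between those of BETi-211 and the controls in every line, without overlap.

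Some members did not differ between the compounds by the test. For ZBTB44 the differences were 0.02, 0.05 and 0.03, with 95% intervals, not adjusted for the number of genes, of -0.09 to 0.14, -0.06 to 0.16 and -0.08 to 0.15. For ZBTB26 they were 0.16, -0.16 and 0.16, with intervals of 0 to 0.32, -0.32 to 0 and 0 to 0.32. ZBTB45, described in mice as a regulator of glial differentiation, had differences of -0.09, -0.17 and -0.01, with intervals of -0.23 to 0.05, -0.31 to -0.03 and -0.15 to 0.13.

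**Figure D5:**
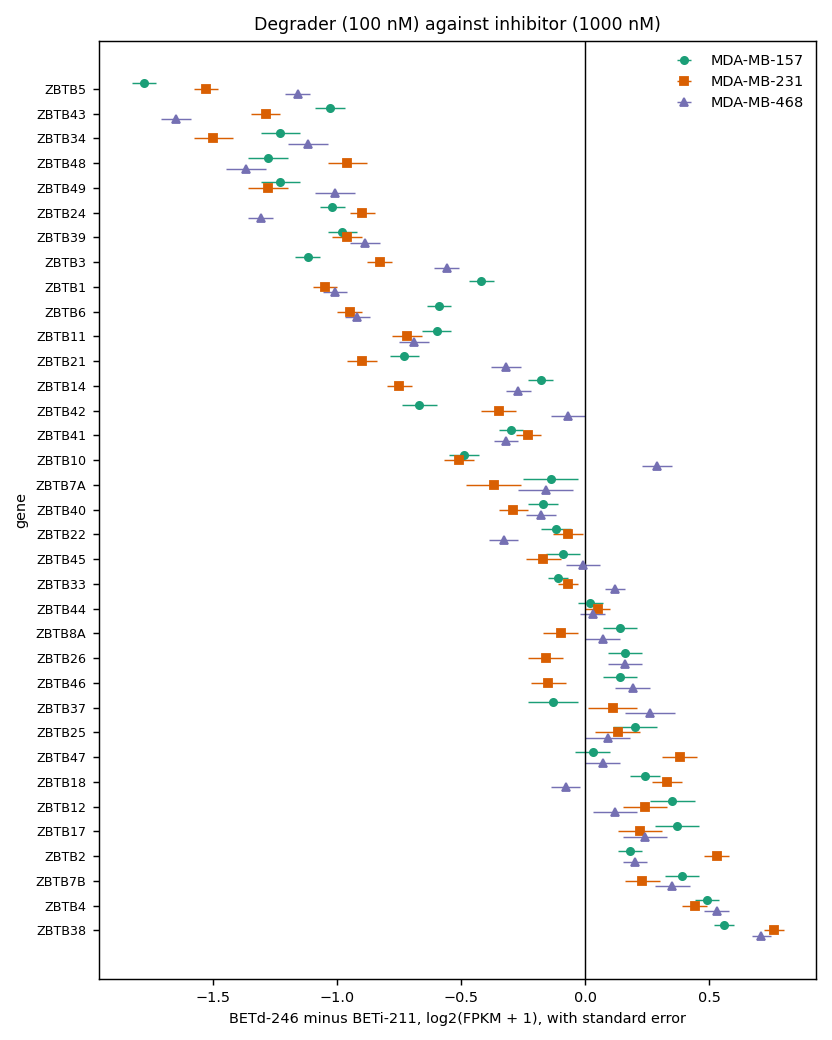
Difference between BETd-246 (100 nM) and BETi-211 (1000 nM) in log2(FPKM + 1) for 35 ZBTB genes, 1 symbol per line with its standard error; values left of 0 are lower with BETd-246. ZBTB5, ZBTB43, ZBTB34 and ZBTB49 lie at -1 or below in all lines, and ZBTB38 lies at 0.56 to 0.76.

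The 250 bases before the RefSeq transcription starts (GRCh38.p14) are shown for 3 genes at least 2-fold lower with BETd-246 than with BETi-211 (ZBTB5, ZBTB43 and ZBTB34) and for 2 genes with the opposite order (ZBTB4 and ZBTB2). They lie at chr9:37465451-37465700 (minus strand), chr9:126804790-126805039 (plus), chr9:126860389-126860638 (plus), chr17:7484250-7484499 (minus) and chr6:151391560-151391809 (minus). Capitals mark, on either strand, the GC box GGGCGG, the CCAAT box CCAAT, the TATA box TATAAA, the E-box CACGTG, the CRE TGACGTCA, the ETS motif CCGGAAG, the NRF1 core GCATGCGC and the Kaiso core CTCGCGAG, and matches that touch or overlap run together.
ZBTB5: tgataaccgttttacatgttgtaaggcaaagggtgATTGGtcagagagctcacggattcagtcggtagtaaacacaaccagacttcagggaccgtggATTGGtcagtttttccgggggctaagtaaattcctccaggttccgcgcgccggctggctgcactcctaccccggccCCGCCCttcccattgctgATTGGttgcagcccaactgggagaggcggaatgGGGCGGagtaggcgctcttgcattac
ZBTB43: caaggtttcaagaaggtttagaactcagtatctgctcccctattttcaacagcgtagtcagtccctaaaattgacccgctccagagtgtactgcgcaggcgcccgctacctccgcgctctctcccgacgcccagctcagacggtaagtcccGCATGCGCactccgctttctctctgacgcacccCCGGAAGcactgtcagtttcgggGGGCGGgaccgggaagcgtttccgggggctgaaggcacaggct
ZBTB34: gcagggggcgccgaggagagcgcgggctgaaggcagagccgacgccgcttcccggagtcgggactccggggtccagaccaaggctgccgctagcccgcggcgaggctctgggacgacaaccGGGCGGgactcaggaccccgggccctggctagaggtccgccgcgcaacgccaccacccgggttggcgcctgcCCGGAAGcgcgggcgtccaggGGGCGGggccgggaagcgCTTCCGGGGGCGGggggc
ZBTB4: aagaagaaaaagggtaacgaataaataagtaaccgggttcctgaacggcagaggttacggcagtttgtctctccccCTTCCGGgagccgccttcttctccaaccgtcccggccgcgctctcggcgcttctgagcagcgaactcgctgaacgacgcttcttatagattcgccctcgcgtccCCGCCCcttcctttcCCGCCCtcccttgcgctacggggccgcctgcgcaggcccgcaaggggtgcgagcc
ZBTB2: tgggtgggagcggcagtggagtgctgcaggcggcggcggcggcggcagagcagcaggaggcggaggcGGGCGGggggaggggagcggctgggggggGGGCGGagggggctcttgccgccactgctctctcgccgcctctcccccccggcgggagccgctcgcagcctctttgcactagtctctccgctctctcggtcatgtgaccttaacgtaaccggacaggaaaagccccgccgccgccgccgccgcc

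All 5 windows hold a GC box, so that motif does not separate the genes shown. Of the genes with the same order that are not shown, ZBTB49 has no GC box in its window. ZBTB7B has one in each of its windows, and ZBTB38 in some of its windows. ZBTB5 adds CCAAT boxes, all written ATTGG on this strand. ZBTB43, ZBTB34 and ZBTB4 share an ETS match, and the NRF1 core stands in ZBTB43. Windows were found for 30 of the 35 members, 54 in all because several genes have more than 1 start. Those of ZBTB6, ZBTB10, ZBTB17, ZBTB40 and ZBTB41 were not used here. A GC box was found in 64.8% of the 54 windows, beside 42.6% of all 35116 windows of the genome, an ETS match in 20.4% beside 8.5%, a CCAAT box in 33.3% beside 32%, the E-box in 11.1% beside 6.3%, a TATA box in 5.6% beside 10.7%, the CRE in 3.7% beside 1.6%, the NRF1 core in 3.7% beside 2.6% and the Kaiso core in 0% beside 0.9%. The median GC content was 64.8%, beside 58% over all windows. ZBTB38 alone has 10 of the 54 windows, and the shares are a description of letters.

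The size of the BETd-246 effect differed between lines in some members. The counts were 11 of 35 between MDA-MB-157 and MDA-MB-231 (11.2% of all genes), 9 between MDA-MB-468 and MDA-MB-231 (13.3%) and 10 between MDA-MB-157 and MDA-MB-468 (13.1%). Without the second BETd-246 library of MDA-MB-157 the first of these counts was 7. The widest difference was that of ZBTB7B. It had 7.1 and 7.24 FPKM with BETd-246 in MDA-MB-468, below its controls of 19 to 21.9 FPKM, while in MDA-MB-157 it had 3.44 and 3.5 FPKM, against controls of 3.48 to 4.29 FPKM that overlap them. Its change of -0.13 in MDA-MB-157 did not pass the test (adjusted p = 0.117), but passed it without the second DMSO library (adjusted p = 0.0164) and after column-total scaling (adjusted p = 0.0186). The change in MDA-MB-157 exceeded that in MDA-MB-468 by 1.22 (SE 0.09, adjusted p = 1.06e-07). ZBTB14 fell less in MDA-MB-157, where it had 3.46 and 3.71 FPKM with BETd-246, against 8.23 and 8.12 FPKM with thalidomide and 8.58 and 8.53 FPKM with DMSO, and the difference from MDA-MB-231 was 0.61 (adjusted p = 7.63e-06). ZBTB26 also fell less in MDA-MB-157 than in MDA-MB-231, by 0.61 (adjusted p = 0.000285).

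The BETi-211 effect differed between lines in 9 members between MDA-MB-157 and MDA-MB-231 (16.5% of all genes), 16 between MDA-MB-468 and MDA-MB-231 (21.9%) and 18 between MDA-MB-157 and MDA-MB-468 (21.6%). ZBTB10 fell by 1.12 in MDA-MB-468 and by 0.4 in MDA-MB-157 cells and 0.26 in MDA-MB-231 cells, and the difference from MDA-MB-231 was -0.85 (adjusted p = 1.71e-07). ZBTB21 fell by 0.87 in MDA-MB-468 and by 0.2 in MDA-MB-157, and its change of -0.1 in MDA-MB-231 did not pass the test. ZBTB7B again fell most in MDA-MB-468, 0.84 further than in MDA-MB-231 (adjusted p = 4.38e-06). ZBTB10 and ZBTB21 were picked for this after their values were seen.

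Thalidomide moved no member by the test. Against DMSO, limma called 0 of 35 members in MDA-MB-157 (0.184% of all genes), 0 in MDA-MB-231 cells (0%) and 0 in MDA-MB-468 cells (0%). At an unadjusted p below 0.05 there were 5, 1 and 6 members, beside 2093, 766 and 1980 genes in all. Some members were called without the first DMSO library of MDA-MB-157 or without the second thalidomide library of MDA-MB-231. Each such fit left 1 library in a group, and the share of all genes called in it was not computed.

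Genes of the same protein family under other symbols were lower with BETd-246 too. All 6 that were measured of 8 listed (BCL6, GZF1, HIC2, MYNN, PATZ1 and ZNF131) fell in each line (32.4%, 33.3% and 33.7% of all genes), with medians of -1.07, -1.13 and -1.08. With BETi-211, 2, 3 and 3 of them fell (30.9%, 31.4% and 32.5% of all genes) and 3, 2 and 3 rose (14.9%, 18.7% and 21.3%). BCL6, the repressor of germinal centre B cells, fell by 0.82, 1.29 and 1.19 with BETd-246 and rose by 1.2, 0.88 and 0.5 with BETi-211. GZF1 fell by 1.26, 1.19 and 1.15 with BETd-246 and rose by 0.72, 0.58 and 0.58 with BETi-211. MYNN fell with both compounds, by 1.07, 1.07 and 1.01 with BETd-246 and by 0.98, 0.44 and 0.93 with BETi-211.

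The cofactors that BTB domains recruit were called with BETd-246 about as often as genes in general. Of 17 corepressor and ubiquitin ligase genes, 7, 6 and 5 fell with BETd-246 (32.4%, 33.3% and 33.7% of all genes) and 4, 3 and 4 rose (19%, 14.8% and 20.1%), with medians of -0.12, -0.09 and 0. BCOR, a corepressor that binds the BTB domain of BCL6, fell by 0.82, 1.32 and 1.61, and SIN3A, a scaffold for histone deacetylases, fell by 0.57, 0.82 and 1. HDAC1 rose by 0.25, 0.21 and 0.3. With BETi-211, 9, 10 and 9 of the 17 fell (30.9%, 31.4% and 32.5% of all genes) and 2, 2 and 3 rose (14.9%, 18.7% and 21.3%).

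On the log2(FPKM + 1) scale the average BETd-246 fall was at least 2-fold in 12 members (4.63% of all genes). These 12 and the other 23 were set side by side for features of the gene, as a description chosen after the values were known. The scale understates changes of low genes, and ZBTB49, at -0.99, was among the other 23. The median gene length was 18289.5 bases in the 12, against 28607 bases in the others. Spearman's rho of gene length with the average change was 0.45 across the 35 genes, which share libraries and are not independent. A coding sequence in a single exon, which many BTB zinc finger genes have, was found in 13 members. Of these 13, 8 fell at least 2-fold on average and the median change was -1.08, against 4 of 22 and -0.7 in members with 2 or more coding exons. The mean control level had a rho of 0.08 with the average change.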

How the data were processed

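Per the labels' protocols, ribosomal RNA was removed from total RNA of 3 cell lines, and the library kit keeps no strand. The genome build was GRCh38.p5, and the tools named were Bowtie 0.12.8 and bcl2fastq 2.17.1.14, per the submitters' processing notes. The deposited table holds values, taken here as FPKM, for 14114 genes in 24 libraries. What computed them, on which annotation and with which filter, is not given in the sources used here. The values fit a scaling to transcript length, which does not tell FPKM from other units scaled to length. In 236 genes with a single transcript that were at 0 in some library, the lowest value above 0 had a Spearman's rho of -0.711 with length. The lowest of the genes' highest group means was 1.219 FPKM, so genes had been filtered on expression, and all 35 members passed. Depth was estimated from 8 to 28 genes per library at 42400000 to 63500000 fragments. Only candidate values within a preset range were used, so these depths had to lie in it. No counting interval was computed because the table holds no counts.

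Values were tested as log2(FPKM + 1), which understates changes of low genes, with limma 3.58.1 in R 4.3.3: 1 coefficient for each of 12 groups, no block, a variance trend, 12 residual and 3.32 prior degrees of freedom, two-sided, adjusted by Benjamini-Hochberg over 14114 genes. Controls entered each comparison as the average of the thalidomide and DMSO coefficients of the line. The script was checked on simulated data. Coordinates, exons and gene types come from GENCODE 29 on GRCh38, in which 13951 identifiers were found, and promoter windows from RefSeq on GRCh38.p14.

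Members and lists were chosen with earlier results of these data known. Members described in full were the 7 largest falls in the average BETd-246 effect, the 2 largest called BETi-211 falls and rises, the 3 largest differences between the compounds and the 3 largest between lines, with at least 2 FPKM for the first of these and 5 places for rises with BETd-246, of which there were 0; members with known roles were added from a fixed list. Alternatives were another pseudocount (0.1), a filter at 1 FPKM, other scalings, other controls, no trend, each line alone, a replicate block and leaving out each library.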

Additional observations from a re-analysis of the deposited data

Results flagged for a closer look

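In 9 of the 105 sets of 4 control libraries (35 members in 3 lines), 1 library stood apart from the other 3, and chance flags about 1 in 20 such sets. In MDA-MB-468, ZBTB7B was at 21.9 FPKM in the second thalidomide library, against 19 to 19.2 in the others, and ZBTB3 was at 4.82 FPKM in the first DMSO library, against 5.11 to 5.16. In MDA-MB-157, the second DMSO library had 18.4 FPKM for ZBTB11, 10.8 for ZBTB41 and 4.63 for ZBTB48, against 16.1 to 16.5, 9.72 to 9.88 and 5.7 to 5.74 in the other controls. In MDA-MB-231, the first thalidomide library had 6.11 FPKM for ZBTB34, 11.7 for ZBTB7A and 8.82 for ZBTB33, against 4.75 to 4.84, 8.59 to 8.84 and 9.29 to 9.36, and the second DMSO library had 7.17 FPKM for ZBTB40, against 7.73 to 7.79.

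Among the members described in full, ZBTB7B, ZBTB26 and ZBTB14 had a BETd-246 effect that differed between lines by limma's test of the difference. For ZBTB7B the effect in MDA-MB-157 exceeded that in MDA-MB-231 by 0.5 (adjusted p = 0.00155) and that in MDA-MB-468 by 1.22 (adjusted p = 1.06e-07), and MDA-MB-468 minus MDA-MB-231 was -0.72 (adjusted p = 4.03e-05). For ZBTB26, MDA-MB-157 exceeded MDA-MB-231 by 0.61 (adjusted p = 0.000285) and MDA-MB-468 exceeded MDA-MB-231 by 0.35 (adjusted p = 0.0165). For ZBTB14, MDA-MB-157 exceeded MDA-MB-231 by 0.61 (adjusted p = 7.63e-06) and MDA-MB-468 by 0.38 (adjusted p = 0.00069), and MDA-MB-468 exceeded MDA-MB-231 by 0.23 (adjusted p = 0.0283).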

How the results depend on the processing

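Over the settings that kept all libraries, members lower with BETd-246 numbered 26 to 34 in MDA-MB-157, 29 to 35 in MDA-MB-231 and 28 to 33 in MDA-MB-468, and members lower with BETi-211 numbered 21 to 28, 25 to 27 and 28 to 30. Leaving out 1 library gave 29 to 32, 34 to 35 and 31 to 32 with BETd-246.

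Scaling moved the smaller counts most, and the shares of all genes called in each setting are not given here. The split of all called genes moved as well. Of all genes called between BETd-246 and BETi-211, 64.7% were higher in both MDA-MB-157 and MDA-MB-468 after quantile normalization. On FPKM as deposited these shares were 52.1% and 46.5%. Quantile normalization gave 2 members higher with BETd-246 in MDA-MB-468, 5 higher with BETi-211 in MDA-MB-157, 11 and 15 higher with BETd-246 than with BETi-211 in MDA-MB-157 cells and MDA-MB-468 cells, and 1 called for thalidomide against DMSO in MDA-MB-157. Median-of-ratios scaling gave 1 higher with BETd-246 in MDA-MB-468 and 11 higher with BETd-246 than with BETi-211 in MDA-MB-157, and it turned the BETd-246 change of ZBTB38 in MDA-MB-231 to 0.02 (adjusted p = 0.573). Column-total scaling gave 1 higher with BETi-211 in MDA-MB-231, 1 in MDA-MB-468 and 5 higher with BETd-246 than with BETi-211 in MDA-MB-468. With thalidomide alone as control, 1 member rose with BETi-211 in MDA-MB-231 cells and 1 in MDA-MB-468 cells, and with the line fitted alone 1 rose in MDA-MB-231. Differences of the BETd-246 effect between MDA-MB-157 and MDA-MB-231 numbered 7 with a pseudocount of 0.1, and those between MDA-MB-157 and MDA-MB-468 numbered 6 with DMSO alone as control. The cause was not tested.

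Leaving out 1 library gave 0 to 3 members higher with BETi-211 in MDA-MB-231 and 1 to 2 in MDA-MB-468. It gave 5 to 6 higher with BETd-246 than with BETi-211 in MDA-MB-468, where the lowest value came without the second BETi-211 or the first BETd-246 library. For thalidomide against DMSO, members were called in MDA-MB-157 without the first DMSO library and in MDA-MB-231 without the second thalidomide library. The share of all genes called in those fits was not computed. Differences of the BETd-246 effect numbered 7 to 14 between MDA-MB-157 and MDA-MB-231, with 7 without the second BETd-246 library of MDA-MB-157, 6 to 13 between MDA-MB-468 and MDA-MB-231 and 7 to 10 between MDA-MB-157 and MDA-MB-468. A group left with 1 library was assumed to vary like the others.

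Libraries with the same replicate number gave correlations of -0.207 to 0.335, of which those among BETd-246, thalidomide and DMSO in MDA-MB-468 were 0.175 to 0.335. Not every pair was above 0.1, so the numbers were not taken to pair the samples. With the replicate block, 32, 35 and 33 members fell with BETd-246, and 27, 26 and 29 fell and 3, 2 and 2 rose with BETi-211. With it 8, 6 and 6 members were higher with BETd-246 than with BETi-211, beside 7, 7 and 9 without it. Depth may limit members under 1 FPKM, such as ZBTB47 in MDA-MB-157, and the log2(FPKM + 1) scale understates their changes. There ZBTB47 had 0.233 and 0.239 FPKM with BETd-246, below its controls of 0.314 to 0.407 FPKM.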
